A study of Mus musculus with 6 samples.

Results

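The mitochondrially encoded genes were taken as every mouse gene that the count table places on chromosome MT, which gave 37 of the 52550 mouse genes in the table. They comprised 13 protein-coding genes, 2 ribosomal RNA (rRNA) genes and 22 transfer RNA (tRNA) genes. Muscle RNA came from 3 FLExDUX4 and 3 WT male mice. FLExDUX4 mice were hemizygous for a human DUX4 transgene that sits inverted at the Rosa26 locus and is expressed at a very low, leaky level, and WT mice were littermates without it. No Cre was part of either group, and every FLExDUX4 mouse carried the same transgene insertion, so the insertion and the transgene cannot be told apart. The sample labels name quadriceps muscle at 13 weeks of age, whereas the study's methods describe triceps muscle of younger mice. The values used were the counts summed over the mice of each genotype, with 1 value per genotype. The difference between genotypes therefore has no replicate check, no p-value is given, and every interval covers counting error only.

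Mitochondrial DNA is a small circular genome that encodes core subunits of respiratory complexes I, III and IV and of the ATP synthase (complex V), together with the rRNAs and tRNAs with which mitochondria translate them. Both strands are transcribed as long precursors, and the tRNAs that lie between most other genes are cut out to release the mRNAs and rRNAs. Most mitochondrial mRNAs carry a short poly(A) tail, the mRNA of mt-Nd6 being the usual exception, and all remaining subunits of these complexes are made from nuclear genes. The libraries were 3′ mRNA libraries (QuantSeq), which are primed with oligo(dT), so a transcript is read from a stretch of A in its tail or in its own sequence. Counts therefore measure priming as well as abundance, and levels of different genes cannot be read as molecule numbers.

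Counts on mouse genes totalled 13110125 in FLExDUX4 and 18367364 in WT. Skeletal muscle markers held 11.6% of them in FLExDUX4 and 11.8% in WT. The table has no row for the human DUX4 transgene, so the genotype could not be checked on it, and the mouse genes Duxf3 and Duxbl1 had 0 counts in both genotypes. In bulk RNA, fewer cells of a type and less RNA per cell cannot be told apart.

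Of the 37 genes, 26 had counts and 11 were at 0 in both genotypes. The protein-coding genes at 0 were mt-Co2 and mt-Co3, core subunits of cytochrome c oxidase (complex IV), mt-Atp8, a subunit of the ATP synthase, and mt-Nd4l, a subunit of complex I. The tRNA genes at 0 were mt-Tn, mt-Ty, mt-Ts1, mt-Td, mt-Tk, mt-Tg and mt-Th. A count of 0 allows a share of up to 0.000101% of the mitochondrial counts in FLExDUX4 and 7.42e-05% in WT, taking 3 counts as the limit. The genes at 0 were not spread evenly along the genome. Between mt-Co1 and mt-Nd4, 8 of 11 genes were at 0, and elsewhere 3 of 26 were.

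**Figure D1:**
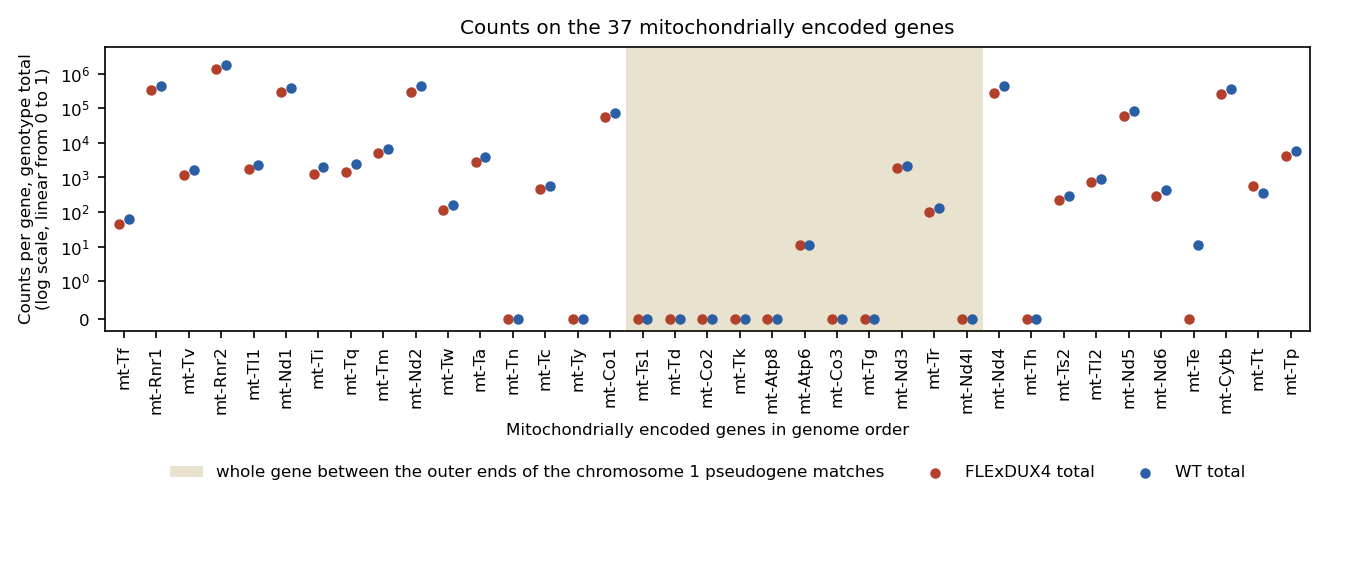
Counts summed over the mice of each genotype (y axis, log scale that turns linear between 0 and 1) on each of the 37 mitochondrially encoded genes in genome order (x axis), with FLExDUX4 in red, WT in blue, and shading over the 11 genes that lie whole between the outer ends of the matches to 7 pseudogenes on chromosome 1. Of the shaded genes, 8 are at 0 in both genotypes, and mt-Nd3 has the most counts among the other shaded genes.

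Most of the stretch between mt-Co1 and mt-Nd4 has a nearly identical match among annotated nuclear pseudogenes. In the GENCODE M21 annotation of GRCm38, 7 pseudogenes on the minus strand of chromosome 1 (chr1:24611535-24616197) lined up in order along positions 6390 to 11042 of MT. They are Gm29216 (mt-Co1), Gm28661 (mt-Co2), Gm10925 (mt-Atp6), Gm28437 (mt-Co3), Gm28438 (mt-Nd3), Gm10222 (mt-Nd4l) and Gm28439 (mt-Nd4). Over 4140 aligned bases they differed from the mitochondrial genes at 2 positions. The sequences of 5 of these genes and their nuclear copies are set side by side because a read that fits both places equally well has no unique origin. The first pair is the end of mt-Co2 (chrMT:7634-7693, plus strand) and the same stretch of its copy (chr1:24614885-24614944, minus strand), which are identical.
mt-Co2: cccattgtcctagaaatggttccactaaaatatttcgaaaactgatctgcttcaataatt
Gm28661: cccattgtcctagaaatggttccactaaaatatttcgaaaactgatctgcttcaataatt
The second pair is the end of mt-Co3 (chrMT:9330-9389, plus strand) and of its copy (chr1:24613189-24613248, minus strand), again identical.
mt-Co3: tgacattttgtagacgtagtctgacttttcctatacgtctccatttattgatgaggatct
Gm28437: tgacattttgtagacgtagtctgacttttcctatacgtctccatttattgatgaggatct
The third pair is the end of mt-Atp6 (chrMT:8545-8604, plus strand) and of its copy (chr1:24613974-24614033, minus strand), with no difference either.
mt-Atp6: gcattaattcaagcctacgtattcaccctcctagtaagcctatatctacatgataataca
Gm10925: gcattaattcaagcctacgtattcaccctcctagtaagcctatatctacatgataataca
The fourth pair is the start of mt-Nd3 (chrMT:9459-9518, plus strand) and of its copy (chr1:24613060-24613119, minus strand), with the differing base in capitals. Counted from 1 at the 5′ end of the mitochondrial gene, it is T3C.
mt-Nd3: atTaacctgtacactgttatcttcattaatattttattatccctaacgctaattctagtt
Gm28438: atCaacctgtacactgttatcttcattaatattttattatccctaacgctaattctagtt
The fifth pair is the part of mt-Co1 where the copy begins (chrMT:6390-6449, plus strand) and the same part of its copy (chr1:24616129-24616188, minus strand), with the differing base, A1066T, in capitals.
mt-Co1: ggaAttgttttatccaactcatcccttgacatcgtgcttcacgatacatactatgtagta
Gm29216: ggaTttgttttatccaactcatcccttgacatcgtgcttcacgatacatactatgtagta

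To put a figure on this for each gene, every 75-base window of the gene, the length of the reads, was looked up in the annotated nuclear transcripts. The share of windows found there was 99.9% for mt-Co3, 99.5% for mt-Co2 and for mt-Atp6, 98.7% for mt-Nd4l and 97.8% for mt-Nd3. Of these 5 genes, 3 were at 0, mt-Atp6 had 11 counts in each genotype, and mt-Nd3 had 1937 in FLExDUX4 and 2134 in WT. The share was 61.5% for mt-Nd4 and 39.8% for mt-Co1, both of which had counts. The last 502 bases of mt-Nd4 lie past the copied stretch, and the first 1062 bases of mt-Co1 lie before it. The share was 5.71% for mt-Nd2, 1.66% for mt-Nd5 and 0 for mt-Rnr1, mt-Rnr2, mt-Nd1, mt-Nd6 and mt-Cytb, all of which had counts. mt-Atp8 was the exception, with a share of 0 and a count of 0. Only annotated transcripts were searched, so these shares are lower limits, and none of the 7 pseudogenes covers mt-Atp8 beyond the 43 bases that it shares with mt-Atp6, or any of the 5 tRNA genes in the stretch, so a copy of these was not read. Among the tRNA genes inside the stretch, 4 of 5 were at 0, with mt-Tr (99 counts in FLExDUX4, 133 in WT) the exception.

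Few counts stood under the nuclear names. The 7 pseudogenes together held 46 counts in FLExDUX4 and 58 in WT, and the 11 mitochondrial genes inside the stretch held 2047 and 2278. On chromosome 1, Gm29216 had 15 counts in FLExDUX4 and 20 in WT, and Gm28438 had 11 and 25. Some less exact copies elsewhere held more. Gm13340 on chromosome 2, 97.6% identical to mt-Co1, had 364 counts in FLExDUX4 and 581 in WT. Its neighbour Gm13341, 95.9% identical to mt-Co2, had 361 and 498. The other copies with at least 20 counts were Gm4076 (mt-Nd5, 73 in FLExDUX4 and 90 in WT), Gm43841 (36 bases of mt-Tt, 45 and 48), Gm43743 (116 bases of mt-Atp6, 17 and 32), Gm11410 (mt-Cytb, 16 and 13) and the nuclear gene Cep295, with a transcript that holds a stretch like mt-Tl1 and mt-Tn (166 and 215). How the counting treated reads that fit several places is not given in the sources used here, and its part in the zeros was not tested. The zeros at mt-Co2, mt-Co3, mt-Atp8 and mt-Nd4l, and the counts at mt-Atp6 and mt-Nd3, are accordingly uncertain as levels of these transcripts. So are the counts at mt-Co1, whose last 483 bases match Gm29216 at 99.8% identity.

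**Figure D2:**
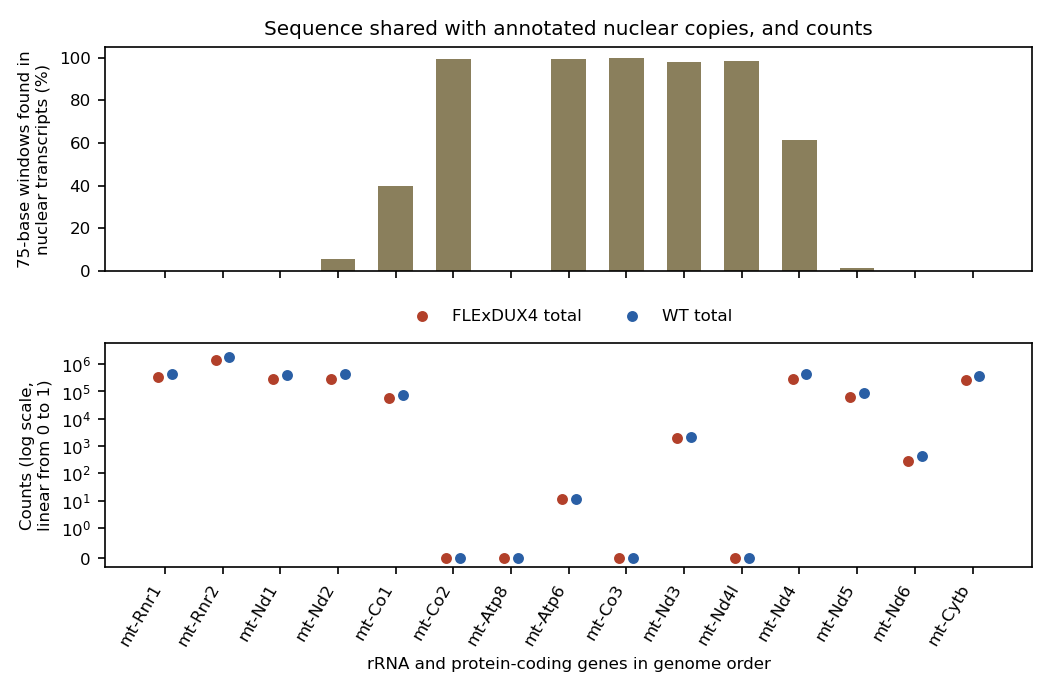
The upper panel gives the percentage of 75-base windows of each rRNA or protein-coding gene that occur in an annotated nuclear transcript, and the lower panel the counts of the same genes in FLExDUX4 (red) and WT (blue) on a log scale that turns linear between 0 and 1. The 5 genes with at least 97.8% of windows shared have at most 2134 counts, mt-Nd4 with 61.5% has 287628 and 431369, and mt-Atp8 is at 0 with no window shared.

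Mitochondrially encoded genes held 2984979 counts in FLExDUX4 and 4045212 in WT. This was 22.77% of all counts on mouse genes in FLExDUX4 (95% Clopper-Pearson interval 22.75 to 22.79) and 22.02% in WT (22.01 to 22.04). The excess lay in the rRNAs. They took 57.4% of the mitochondrial counts in FLExDUX4 and 55.0% in WT, mRNAs took 41.9% and 44.3%, and tRNAs took 0.661% and 0.674%. Without mt-Rnr2 the mitochondrial share was 13.7% in both genotypes, and without both rRNAs it was 11.1% in FLExDUX4 and 11.3% in WT, which turned the order.

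mt-Rnr2, the large-subunit (16S) rRNA, was the most counted of all 37 genes, with 1379348 counts in FLExDUX4 and 1774113 in WT. It took 46.2% of the mitochondrial counts in FLExDUX4 and 43.9% in WT. mt-Rnr1, the small-subunit (12S) rRNA, had 335331 counts in FLExDUX4 and 451967 in WT, and took 11.2% in each. The higher rRNA share in FLExDUX4 was thus a higher share of mt-Rnr2. Of the rRNA and protein-coding genes, mt-Rnr2 also had the densest stretch of A in its own sequence, with 13 of 15 bases from position 395 of the gene. The densest such stretch had 12 A in mt-Nd2 and mt-Nd4 and 11 in mt-Rnr1 and mt-Nd5. It had 10 A in mt-Nd1, mt-Co1 and mt-Cytb and 7 in mt-Nd6. Among the genes listed here, mt-Rnr2 stood first and mt-Nd6 last both by A and by counts. In between the orders differed, with mt-Rnr1 above mt-Nd2 and mt-Nd4 by counts, and mt-Nd1 and mt-Cytb above mt-Nd5. The richest 15 bases are in capitals below, within chrMT:1468-1522 for mt-Rnr2 and chrMT:351-405 for mt-Rnr1, both on the plus strand.
mt-Rnr2: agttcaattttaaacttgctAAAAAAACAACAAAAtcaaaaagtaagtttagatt
mt-Rnr1: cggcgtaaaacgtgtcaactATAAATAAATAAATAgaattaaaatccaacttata
Whether these stretches were primed was not tested.

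Among the mRNAs, 4 took 90.4% of the counts in FLExDUX4 and 91.0% in WT. They were mt-Nd1, mt-Nd2 and mt-Nd4, which encode membrane subunits of complex I (NADH dehydrogenase), and mt-Cytb, the cytochrome b of complex III. With the 2 rRNAs they took 95.3% of the mitochondrial counts in FLExDUX4 and 95.4% in WT. mt-Nd2 had 292521 counts in FLExDUX4 and 437127 in WT, and its share was 9.80% in FLExDUX4 and 10.8% in WT. mt-Nd4 had 287628 and 431369, with a share of 9.64% in FLExDUX4 and 10.7% in WT. mt-Nd1 had 290560 and 397754, with a share of 9.73% in FLExDUX4 and 9.83% in WT. mt-Cytb had 259525 and 364864, with 8.69% in FLExDUX4 and 9.02% in WT. All 4 shares were lower in FLExDUX4, by most in mt-Nd2 and mt-Nd4, but for mt-Nd1 and mt-Cytb this turned when the rRNAs and tRNAs were left out of the denominator. Of the protein-coding mitochondrial counts, mt-Nd1 took 23.2% in FLExDUX4 and 22.2% in WT, and mt-Cytb 20.8% and 20.4%. mt-Nd2 (23.4% in FLExDUX4 and 24.4% in WT) and mt-Nd4 (23.0% and 24.1%) were lower in FLExDUX4 on that scale too.

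The remaining mRNAs had fewer counts. mt-Nd5, a further complex I subunit, had 61854 counts in FLExDUX4 and 86491 in WT, 2.07% and 2.14% of the mitochondrial counts, and 4.95% and 4.83% of the protein-coding ones, the opposite order. mt-Co1, the catalytic subunit of complex IV, had 56241 and 71655, 1.88% and 1.77%, and its share was higher in FLExDUX4 among the protein-coding counts as well (4.497% and 3.999%). mt-Nd3, of complex I, took 0.0649% in FLExDUX4 and 0.0528% in WT. mt-Nd6, which is read from the opposite strand to the other mRNAs, had 289 counts in FLExDUX4 and 444 in WT, or 0.00968% and 0.0110%. Its annotated 3′ end overlaps that of mt-Nd5 on the other strand by 14 bases, and the strand setting of the counting is not given in the sources used here. Genes of the same light strand as mt-Nd6, 9 in all, held 0.303% of the mitochondrial counts in FLExDUX4 and 0.326% in WT. The last 100 bases held 36% A in mt-Cytb and 24% in mt-Nd6. Over the plus-strand protein-coding genes this share ran from 26% in mt-Co3 to 44% in mt-Atp8. The ends of mt-Cytb (chrMT:15229-15288, plus strand) and mt-Nd6 (chrMT:13552-13611, minus strand) are given below.
mt-Cytb: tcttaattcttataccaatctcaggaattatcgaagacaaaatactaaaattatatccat
mt-Nd6: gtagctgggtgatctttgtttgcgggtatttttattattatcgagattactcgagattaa

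By count, the mRNAs in WT ran in the order mt-Nd2, mt-Nd4, mt-Nd1, mt-Cytb, mt-Nd5, mt-Co1, mt-Nd3, mt-Nd6 and mt-Atp6, and in FLExDUX4 mt-Nd1 stood above mt-Nd4. Divided by gene length, mt-Nd2 stood first in WT (421124 counts per kilobase) and mt-Nd1 in FLExDUX4 (303615). Counts of 3′ libraries do not scale with gene length, so neither order ranks the transcripts by abundance. Which of these neighbours differ beyond the spread between mice cannot be said from totals.

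**Figure D3:**
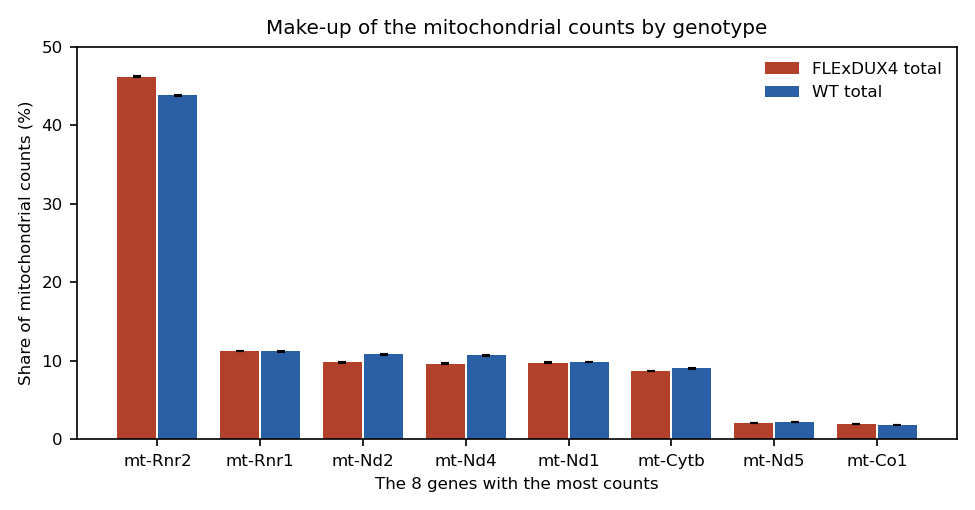
Share of the mitochondrial counts (y axis, percent, from 0) taken by the 8 most counted genes (x axis) in FLExDUX4 (red) and WT (blue), with 95% Clopper-Pearson intervals that cover counting error only. mt-Rnr2 is higher in FLExDUX4 (46.2% against 43.9%), and mt-Nd2 and mt-Nd4 are lower (9.80% against 10.8% and 9.64% against 10.7%).

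For a comparison against nuclear genes, the genotype totals were scaled by TMM, and the ratio of FLExDUX4 to WT was taken on the log2 scale after adding 0.5 counts. Of the 37 genes, 25 passed the filter on low counts and 1 more, mt-Te, had counts but did not pass. Of the 25, 19 had a ratio above 0 and 6 below it, with a median of 0.06 against -0.001 over the 13396 genes compared. Past an absolute log2 ratio of 0.5 stood 2 members, mt-Tt and mt-Atp6, both higher in FLExDUX4, and no member was lower by that much. With gene totals mt-Atp6 was at 0.49, and with spike-in totals it was at 0.24 and mt-Tq at -0.54, which left 1 member past 0.5 on the higher side and 1 on the lower. Over all genes compared, 15.7% were past this ratio on the higher side and 15.7% on the lower side. Most of those had few counts. Among genes with at least 2000 counts over both totals, 1.16% were past it on the higher side and 0.65% on the lower, and none of the 16 members with as many counts was. The median absolute log2 ratio was 0.08 for those 16 members and 0.09 for the 1384 genes with as many counts, so that the mitochondrial genes differed between genotypes by about as much as other abundant genes. For 9 of the 16 the counting interval of the ratio lay above 0 and for 4 below it, where 25.4% and 27.1% of the 1384 genes did. Such intervals narrow as counts rise, so these shares do not compare genes at equal depth. For mt-Cytb, with 624389 counts over both totals, an interval as close to 0 as 0.018 to 0.032 lay above it.

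The rRNAs had log2 ratios of 0.15 (counting interval 0.15 to 0.16) for mt-Rnr2 and 0.09 (0.08 to 0.09) for mt-Rnr1. The mRNAs were centred near 0, with 6 of 9 above it, a median of 0.03 and a ratio of their summed counts of -0.002 (-0.006 to 0.001). Within complex I the ratio was -0.07 for mt-Nd4, -0.06 for mt-Nd2, 0.03 for mt-Nd5, 0.06 for mt-Nd1 and 0.38 (0.29 to 0.47) for mt-Nd3. The ratio for mt-Nd6 was -0.10, with an interval from -0.32 to 0.11 that held 0. It was 0.02 for mt-Cytb and 0.17 (0.15 to 0.18) for mt-Co1. mt-Atp6, a subunit of the ATP synthase, had 11 counts in each genotype, and its ratio of 0.52 had an interval from -0.83 to 1.86. The highest ratio of an mRNA with at least 100 counts was thus that of mt-Nd3, nearly all of which is shared with the nucleus.

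These directions depend on the scaling. With the totals of added spike-in RNA, 220016 counts in FLExDUX4 and 259913 in WT, in place of TMM, every log2 ratio was lower by 0.28, and 3 members were then above 0 and 22 below. Those above 0 were mt-Tt, mt-Nd3 and mt-Atp6. The other 16 members above 0 with TMM, mt-Rnr1, mt-Rnr2, mt-Co1 and mt-Cytb among them, were below it with spike-ins, since each scaling shifts all genes by 1 constant. Shares of the mitochondrial counts do not depend on the scaling.

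**Figure D4:**
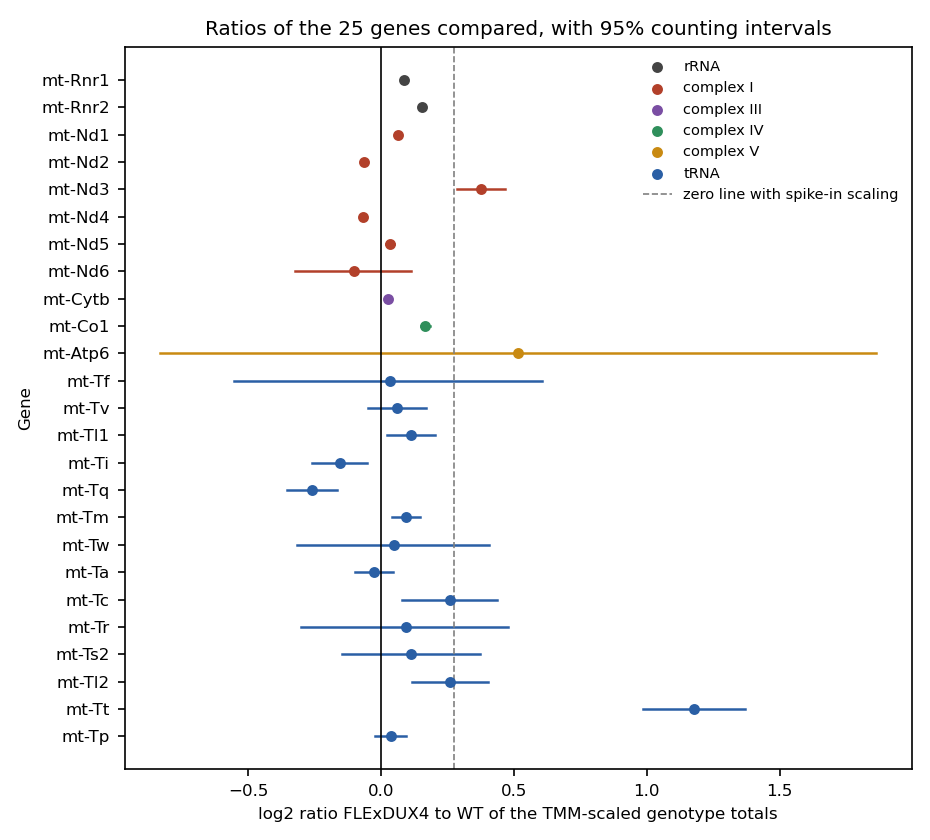
Log2 ratio of FLExDUX4 to WT (x axis) for the 25 mitochondrially encoded genes compared (y axis, by class), from TMM-scaled genotype totals, with lines for 95% counting intervals, a solid line at 0 and a dashed line where 0 would stand with spike-in scaling. mt-Tt stands apart at 1.18, mt-Nd3 follows among well counted genes at 0.38, and mt-Tq is lowest at -0.26.

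The tRNAs, adaptors that carry amino acids to the mitochondrial ribosome and mark the cutting sites in the precursor, held 19734 counts in FLExDUX4 and 27283 in WT. A tRNA gene is no longer than a read, so a count there can come from a precursor or from a neighbouring RNA that runs into it. Of 22 genes, 14 had at least 20 counts, and mt-Tm (5053 in FLExDUX4 and 6772 in WT), mt-Tp (4065 and 5669) and mt-Ta (2743 and 3994) held 60.1% of the tRNA counts in FLExDUX4 and 60.2% in WT. Of the 14, 11 had a log2 ratio above 0 and 3 below it, with a median of 0.08.

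mt-Tt, the threonine tRNA, had 574 counts in FLExDUX4 and 363 in WT, the only gene of the 37 with more counts in the smaller FLExDUX4 total than in WT. Its scaled level was 44.2 CPM in FLExDUX4 and 19.6 CPM in WT, a log2 ratio of 1.18 (0.99 to 1.37), and 0.90 with spike-ins. mt-Tp, the proline tRNA that abuts mt-Tt on the other strand, had a log2 ratio of 0.04 (-0.02 to 0.09), and mt-Cytb, which ends at the base before mt-Tt, had 0.02. The difference at mt-Tt was thus not shared by the genes on either side of it. Whether it lay in all FLExDUX4 mice or in 1 of them cannot be read from the totals. mt-Tt lies at chrMT:15289-15355 on the plus strand and mt-Tp at chrMT:15356-15422 on the minus strand.
mt-Tt: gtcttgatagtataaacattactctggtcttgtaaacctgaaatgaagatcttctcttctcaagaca
mt-Tp: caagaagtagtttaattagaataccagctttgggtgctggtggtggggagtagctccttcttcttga

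The lowest ratios were those of 2 neighbouring tRNAs. mt-Tq, the glutamine tRNA, had 1461 counts in FLExDUX4 and 2503 in WT, a log2 ratio of -0.26 (-0.35 to -0.17). mt-Ti, the isoleucine tRNA, had 1222 and 1948, a log2 ratio of -0.16 (-0.26 to -0.05). The pair overlaps by 3 bases on opposite strands just after mt-Nd1, so reads there may be shared between them, while the next gene, mt-Tm (methionine), had a log2 ratio of 0.09 (0.04 to 0.15). mt-Tc (cysteine), with 474 counts in FLExDUX4 and 567 in WT, and mt-Tl2 (leucine), with 741 and 885, each had a log2 ratio of 0.26, and both intervals lay above 0. mt-Tl1 (leucine), with 1752 and 2319 counts, had 0.11 (0.02 to 0.20). For the other tRNAs the interval held 0: mt-Ta at -0.03, mt-Tv at 0.06, mt-Ts2 at 0.11, mt-Tr at 0.09, mt-Tw at 0.05 and mt-Tf at 0.04. mt-Te, the glutamate tRNA, had 0 counts in FLExDUX4 and 11 in WT. Set to the limit of 3 counts over the genotype total, FLExDUX4 was 2.56-fold lower. That value takes the 11 counts as exact and is no lower limit.

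With TMM, nuclear genes for the same complexes differed little. Of 7 nuclear core subunits of complex I, 5 had a ratio above 0 and 2 below, from -0.05 (Ndufv2) to 0.08 (Ndufs7), with a median of 0.05. For complex III it was 6 and 3 of 9, from -0.06 (Uqcrq) to 0.05 (Uqcrfs1), and for complex IV 8 and 3 of 11, from -0.10 (Cox5b) to 0.09 (Cox5a). For the ATP synthase it was 9 and 9 of 18, with Atpif1, its inhibitory factor, at -0.27 and Atp5f1, a stalk subunit, at 0.05 among genes with at least 100 counts. None of the 45 was past 0.5. The medians for complexes III, IV and V were 0.03, 0.01 and -0.004. mt-Nd3 lay above the range of the nuclear subunits of all 4 complexes. mt-Co1 lay above those of complexes I, III and IV but not of complex V, which reached 0.28 at Atp5g2 (38 and 45 counts). The counts of mt-Nd3 and mt-Co1 are uncertain as levels, because of the nuclear copies described above. With spike-in scaling, all 45 nuclear genes, Atpif1 included, were below 0, with a median of -0.26, and 3 of complex V were past -0.5.

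**Figure D5:**
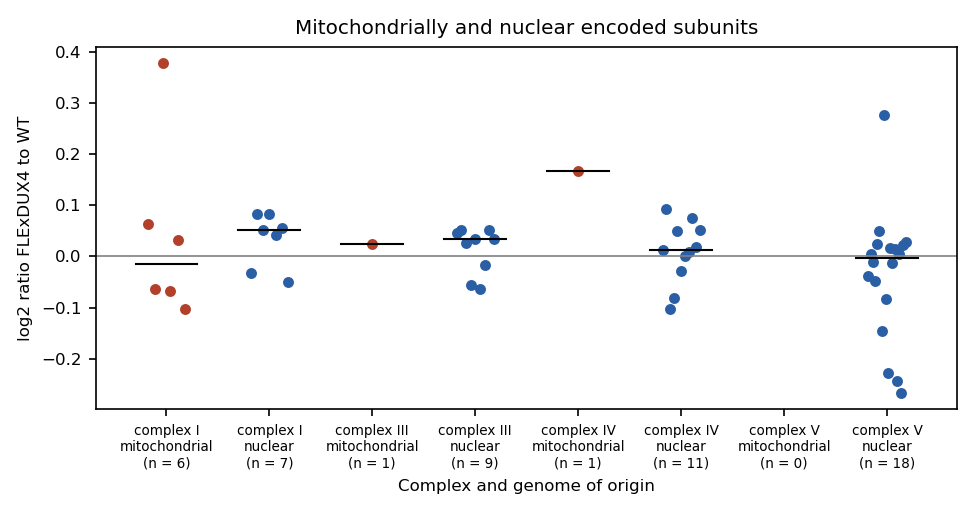
Log2 ratio of FLExDUX4 to WT (y axis) for subunits of complexes I, III, IV and V, split by the genome that encodes them (x axis), with 1 point per gene (red mitochondrial with at least 100 counts, blue nuclear) and a line at each median. The nuclear genes lie between -0.27 (Atpif1, an inhibitory factor) and 0.28 (Atp5g2, 38 and 45 counts). mt-Nd3 at 0.38 is the only point above that range, and its counts are uncertain as a level.

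Genes that act on mitochondrial DNA and RNA had few counts and wider scatter. Of 14 genes for transcription and replication of mitochondrial DNA, 6 had a ratio above 0 and 8 below, with a median of -0.16 (2 and 12 with spike-in scaling), and 2 were past 0.5 on the higher side and 4 on the lower. Tefm, a transcription elongation factor, had 190 counts in FLExDUX4 and 183 in WT (log2 ratio 0.57). Mterf3, a member of the mitochondrial termination factor family, had 86 and 230 (-0.90), Mterf2 of the same family had 107 and 225 (-0.55), and Ssbp1, the mitochondrial single-strand DNA-binding protein, had 99 and 237 (-0.74). Of 22 genes for processing, polyadenylation and decay of mitochondrial RNA, 9 had a ratio above 0 and 13 below, with a median of -0.07 (2 and 20 with spike-in scaling). Past 0.5 with at least 100 counts were Pnpt1 (polynucleotide phosphorylase, 158 and 116 counts, 0.96) on the higher side, and Fastkd3 (51 and 148, -1.01), Trmt10c (a subunit of mitochondrial RNase P, 177 and 375, -0.56), Ptcd1 (60 and 125, -0.54) and Pde12 (79 and 164, -0.53) on the lower. Set against the 15.7% of all genes past 0.5 on each side, these counts are no result about either list.

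Ratios of markers of other cell types and fiber types lay on both sides of 0, some of them further from it than most mitochondrial genes. All 5 blood markers had ratios above 0 (median 0.33) and together took 0.127% of counts in FLExDUX4 and 0.103% in WT, and 5 of 6 adipocyte markers were above 0 (median 0.30). Of 10 markers of slow and oxidative fibers, 8 were below 0 (median -0.07), with Myl2 lowest at -0.25 and Atp2a2 highest at 0.07. The medians were -0.02 for 8 skeletal muscle markers, -0.29 for 4 endothelial, -0.31 for 4 macrophage and leukocyte, 0.04 for 4 fibroblast and 0.09 for 4 Schwann cell markers. Past 0.5 were 2 adipocyte markers and 1 fibroblast marker on the higher side, and 1 adipocyte, 2 endothelial, 2 macrophage and leukocyte and 1 Schwann cell marker on the lower. Those with at least 100 counts were Cfd (1468 counts in FLExDUX4 and 1144 in WT, log2 ratio 0.88), Adipoq (294 and 258, 0.70), Col1a1 (3798 and 3755, 0.53), Kdr (632 and 1334, -0.56) and Tek (80 and 178, -0.63). Set against the 15.7% of all genes past 0.5 on each side, the counts of markers past it are no result about these cell types. No marker was at 0 in both genotypes. With spike-in scaling, 4 of 5 blood and 3 of 6 adipocyte markers were above 0, and all slow and oxidative fiber markers were below it. The part of these in the mitochondrial shares was not tested.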

How the data were processed

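RNA from muscle of 3 FLExDUX4 and 3 WT mice was made into QuantSeq 3′ libraries and sequenced by the provider. The authors trimmed reads with cutadapt 1.16 and aligned them with STAR 2.5.3a to GRCm38 with spike-in sequences. featureCounts 1.6.2 and DESeq2 are listed in the submitters' processing notes, and strand and multi-mapping settings are not given in the sources used here. The authors deposited whole-number counts summed over each genotype, without normalization. The table also has 6 columns per sample whose names match no label, which were not used, and columns of the authors' own comparison (mean, fold change and test values), which were not used either. Tests planned for values per mouse were therefore not run.

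Spike-ins (99 rows) were left out of the totals. TMM factors came from edgeR 4.0.16 (R 4.3.3) over 13396 genes kept by filterByExpr. Log2 ratios used a pseudocount of 0.5, intervals were 95% Clopper-Pearson (scipy 1.17.1), and a total of at most 3 counts was treated as the floor. The ratio script was tested on simulated counts. Sequences and positions are from GENCODE M21 (GRCm38), where all 37 starts equal the deposited ones. Named were all protein-coding and rRNA genes, tRNA genes and nuclear copies with at least 20 counts, and, with at least 100 counts, list genes past 0.5 and those of highest and lowest ratio. For the markers, medians and counts are given in place of some names, and Atp5g2, outside this rule, was named after its value was seen. Spike-in scaling of the lists, and the count of members past 0.5 under each setting, were added after seeing the data. The members and lists were chosen with earlier results of these data known.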

Additional observations from a re-analysis of the deposited data

How the results depend on the processing

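With RLE scaling or a pseudocount of 0 or 1, no value moved beyond its interval. The mitochondrial share of counts was 22.4% in FLExDUX4 and 21.7% in WT with spike-ins in the denominator, 13.0% and 13.0% for protein-coding genes over protein-coding genes, 11.1% and 11.3% without the rRNAs, and 13.7% and 13.7% without mt-Rnr2. The median log2 ratio of the mRNAs, 0.03 with TMM, was 0.017 with upper quartile scaling, 0.017 with nuclear gene totals, 0.0028 with gene totals, 0.024 with no filter and -0.24 with spike-in totals. At an absolute log2 ratio of 0.25, 3588 genes were past it on the higher side and 3599 on the lower, and at a log2 ratio of 1, 802 and 995, against 2102 and 2101 at 0.5. Of the members, 5 were then higher and 1 lower at 0.25, and 1 and 0 at 1. Of the log2 ratios of the 25 members under these settings, 149 stayed within the counting interval and 51 moved past it, and none past 0.5 changed sign (mt-Atp6 came under 0.5 with gene totals and spike-in totals, and mt-Tq went past it with spike-in totals), whereas 16 smaller ones did with spike-in totals, mt-Cytb with gene totals as well. No paired analysis was possible because the columns per mouse have names that match no sample label and so could not be given a genotype or number, and for the same reason no mouse was left out in turn and no test was run. Depth limits mt-Atp6 and mt-Te, with 11 counts or fewer in each genotype.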
